A study of Homo sapiens with 6 samples.

Results

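The genes described here are 10 genes known as targets of the vitamin D receptor (VDR) in monocytes, bone or epithelium, namely CAMP, CD14, THBD, SPP1, CST6, FBP1, TXNIP, HILPDA, NRIP1 and GADD45A. They were chosen by name, with earlier results of these data known, and all 10 were among the 33451 genes of the deposited table. After 5 days of 25(OH)D in the breast cancer line MDA-MB-453, CAMP rose 10.3-fold, THBD 2.83-fold and GADD45A 2.59-fold, whereas TXNIP fell by 32.3%, HILPDA by 30.5% and NRIP1 by 19.0%. FBP1 did not pass the test, and CD14, SPP1 and CST6 were at or near 0 counts in both groups. Thus 3 of the 7 genes with enough counts for a test rose and 3 fell, while 17.3% of the 18183 genes tested rose and 16.5% fell, 33.8% in all.

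MDA-MB-453 cells are an established human line of breast cancer with a luminal profile. The cells were kept for 5 days in medium with 25(OH)D at 100 nM, the control cells received the alcohol solvent alone for the same time, and mRNA was sequenced from 3 libraries in each group. The agent, 25-hydroxyvitamin D, is the main vitamin D metabolite of the circulation. All samples came from this 1 cell line, and no other dose or time is analysed here. The study calls its replicates biological, but the labels do not say that the libraries came from separate cultures, so the p-values measure only the spread between these libraries.

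25(OH)D is converted by the enzyme CYP27B1 to calcitriol, the ligand of VDR. VDR pairs with a retinoid X receptor (RXR) on DNA, typically at AGGTCA-like hexamers, and recruits coactivators or corepressors to nearby genes. In monocytes the pathway is known for the induction of the antimicrobial peptide gene CAMP and of CD14, in bone for that of SPP1, and in epithelium for effects on growth arrest and differentiation.

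The libraries held between 33268860 and 40928176 counts. Of 10 luminal markers all were tested, and their summed level was between 12084 and 12409 CPM (counts scaled to a common library size, which TMM factors adjust) in control and between 10293 and 10481 CPM in 25(OH)D. XBP1 was the most abundant of them and fell from 7947 to 5412 CPM, which lowered the sum. Of the 10 markers 5 rose (50%, against 17.3% of all genes tested) and 3 fell (30%, against 16.5%), with a median log2 fold change of 0.09. Besides XBP1, GATA3 and FOXA1 fell (log2 fold change -0.80 and -0.46), both named after their values were seen. The hormone receptor genes ESR1 and PGR had at most 4 and 8 counts in any library. Mitochondrial genes took between 7.85% and 7.99% of the control counts and between 8.89% and 9.24% of the 25(OH)D counts. The part of this shift in the results was not tested. The first principal component, with 64.8% of the variance, separated the groups.

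For 6 of the 10 genes RefSeq promoter windows on GRCh38.p14 were at hand, with 9 windows in all. The reference used here held no window for GADD45A, THBD, HILPDA and CST6. The windows of 4 genes are printed from the base 250 before the start of transcription to the start itself, in the 5′ to 3′ direction of the gene, because these genes responded in different ways: CAMP rose, TXNIP and NRIP1 fell, and CD14 stayed near 0 counts. Capitals mark matches, on either strand, to the receptor hexamer AGGTCA or its variants (with GGGTCA as the first variant, AGTTCA as the second and GGTTCA as the third), the CCAAT box, the TATAAA box, the E-box CACGTG and the pair of E-box-like motifs (CACGNG repeated after 5 further bases) through which carbohydrate response factors are known to act on TXNIP. The windows lie at chr3:48223245-48223495 on the plus strand (CAMP), and on the minus strand at chr1:145996579-145996829 (TXNIP), chr21:15065936-15066186 (NRIP1) and chr5:140633175-140633425 (CD14).
CAMP: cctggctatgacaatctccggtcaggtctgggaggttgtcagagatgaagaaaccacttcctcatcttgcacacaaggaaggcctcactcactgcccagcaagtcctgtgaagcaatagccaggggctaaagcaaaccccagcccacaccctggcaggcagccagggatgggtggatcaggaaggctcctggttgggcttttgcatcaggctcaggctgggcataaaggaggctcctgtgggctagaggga
TXNIP: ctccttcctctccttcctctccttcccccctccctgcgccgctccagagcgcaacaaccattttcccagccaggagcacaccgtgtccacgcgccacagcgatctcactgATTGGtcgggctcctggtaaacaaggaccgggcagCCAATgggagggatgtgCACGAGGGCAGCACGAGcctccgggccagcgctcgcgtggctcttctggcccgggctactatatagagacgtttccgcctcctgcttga
NRIP1: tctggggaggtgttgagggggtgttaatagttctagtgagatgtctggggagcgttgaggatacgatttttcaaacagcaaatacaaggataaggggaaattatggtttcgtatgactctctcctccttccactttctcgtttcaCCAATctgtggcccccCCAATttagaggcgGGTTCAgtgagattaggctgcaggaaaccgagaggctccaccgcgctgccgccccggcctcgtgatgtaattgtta
CD14: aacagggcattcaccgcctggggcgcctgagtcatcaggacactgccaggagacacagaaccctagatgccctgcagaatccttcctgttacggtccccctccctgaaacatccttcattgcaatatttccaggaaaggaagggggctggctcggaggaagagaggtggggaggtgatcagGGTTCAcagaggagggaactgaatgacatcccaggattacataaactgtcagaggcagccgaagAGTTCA

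The CAMP window held none of these motifs. The TXNIP window held the E-box-like pair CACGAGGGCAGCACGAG from 88 to 72 bases before the start, a motif that 20 of 34796 promoter windows of 300 bases hold (0.0575%), and 2 CCAAT boxes, 1 of them on the opposite strand. The NRIP1 window held GGTTCA from 75 to 70 bases before the start and 2 CCAAT boxes. TXNIP has 2 windows and NRIP1 has 3, for different starts, and only the first of each is printed. The further windows of these genes held none of the marked motifs, so the motifs described depend on the start chosen. The CD14 window held GGTTCA from 69 to 64 bases before the start and AGTTCA, which ends on the start itself. At least 1 of the 4 receptor hexamers is found in 38.6% of all windows and the CCAAT box in 34.6%, so that such matches are common. The paired forms of the hexamer, a direct repeat with 3 bases between (DR3, 0.0747% of windows) or an everted repeat with 6 between (ER6, 0.0374%), were in none of the 9 windows. A match to letters is a description and not a bound site, and these windows reach only 250 bases upstream. The exons on which CAMP, CD14 and TXNIP were counted begin upstream of the starts used here.

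The members of innate immunity and the cell surface are CAMP, THBD and CD14. CAMP, on chromosome 3 from 48223347 to 48225491 (GRCh38, plus strand, protein coding), encodes cathelicidin, the precursor of an antimicrobial peptide. Its counts were 70, 71 and 86 without 25(OH)D and 750, 782 and 613 with it. These are levels of 1.68, 1.88 and 2.34 CPM against 21.3, 20.3 and 18.8 CPM. Every 25(OH)D library was thus far above every control library. The log2 fold change, from the quasi-likelihood test of edgeR with Benjamini-Hochberg adjustment over all genes tested, was 3.36 ± 0.12 (SE, adjusted p = 4.47e-11), a 10.3-fold rise with a 95% interval from 8.57 to 12.4. Only 0.704% of the genes tested had a change of this size or larger in either direction. In RNA from a whole culture, more RNA in each cell and more cells with the RNA cannot be told apart.

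THBD, on chromosome 20 from 23045633 to 23049741 (minus strand, a single exon), encodes thrombomodulin, a surface protein that binds thrombin and turns it towards the activation of protein C. It had 10.04, 10.28 and 9.70 CPM in control and 28.2, 28.8 and 28.02 CPM in 25(OH)D. These values varied little within a group (SD 0.296 and 0.411 CPM, n = 3 each), and the groups did not overlap. The log2 fold change was 1.50 ± 0.07 (SE, adjusted p = 8.08e-10), a 2.83-fold rise with a 95% interval from 2.54 to 3.15. A change of this size or larger was seen in 3.23% of the genes tested.

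CD14, on chromosome 5 from 140631728 to 140633701 (minus strand), encodes the co-receptor that hands bacterial lipopolysaccharide to TLR4. Its counts were 2, 0 and 4 in control and 2, 8 and 2 in 25(OH)D, so that the groups overlapped. It was too low for the filter on low counts, and no fold change is given. In a fit without the filter its adjusted p was 0.645, and a difference was not detectable at this depth, at which 3 counts are worth between 0.072 and 0.0921 CPM.

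Since these genes are known from monocytes, monocyte RNA was looked for with 14 marker genes. Of these, 4 were tested, and their summed level over the list was between 16.8 and 17.6 CPM in control and between 19.6 and 25.2 CPM in 25(OH)D. CD68, a lysosomal protein that other cells also make, was the most abundant and rose from 4.93 ± 0.82 to 15.9 ± 3.18 CPM (SD, n = 3 each; log2 fold change 1.69, adjusted p = 8.16e-07), while VCAN fell by 1.27 on the log2 scale (adjusted p = 5.09e-07). The other 2 tested markers, FCGR1A and S100A9, had between 8 and 41 counts a library and did not pass the test (adjusted p = 0.557 and 0.86). Of the 9 markers too low for a test, S100A12 and SPI1 had 3 counts or fewer in every library, PTPRC (CD45) had at most 6, MNDA at most 10, S100A8 at most 14 and LYZ at most 18. The part of monocyte RNA in the results was not tested. A list of 10 bone markers summed to between 37.1 and 40.4 CPM in control and between 33.3 and 35.5 CPM in 25(OH)D, nearly all of it from COL1A1, and IBSP and ALPL were at 3 counts or fewer in every library.

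**Figure D1:**
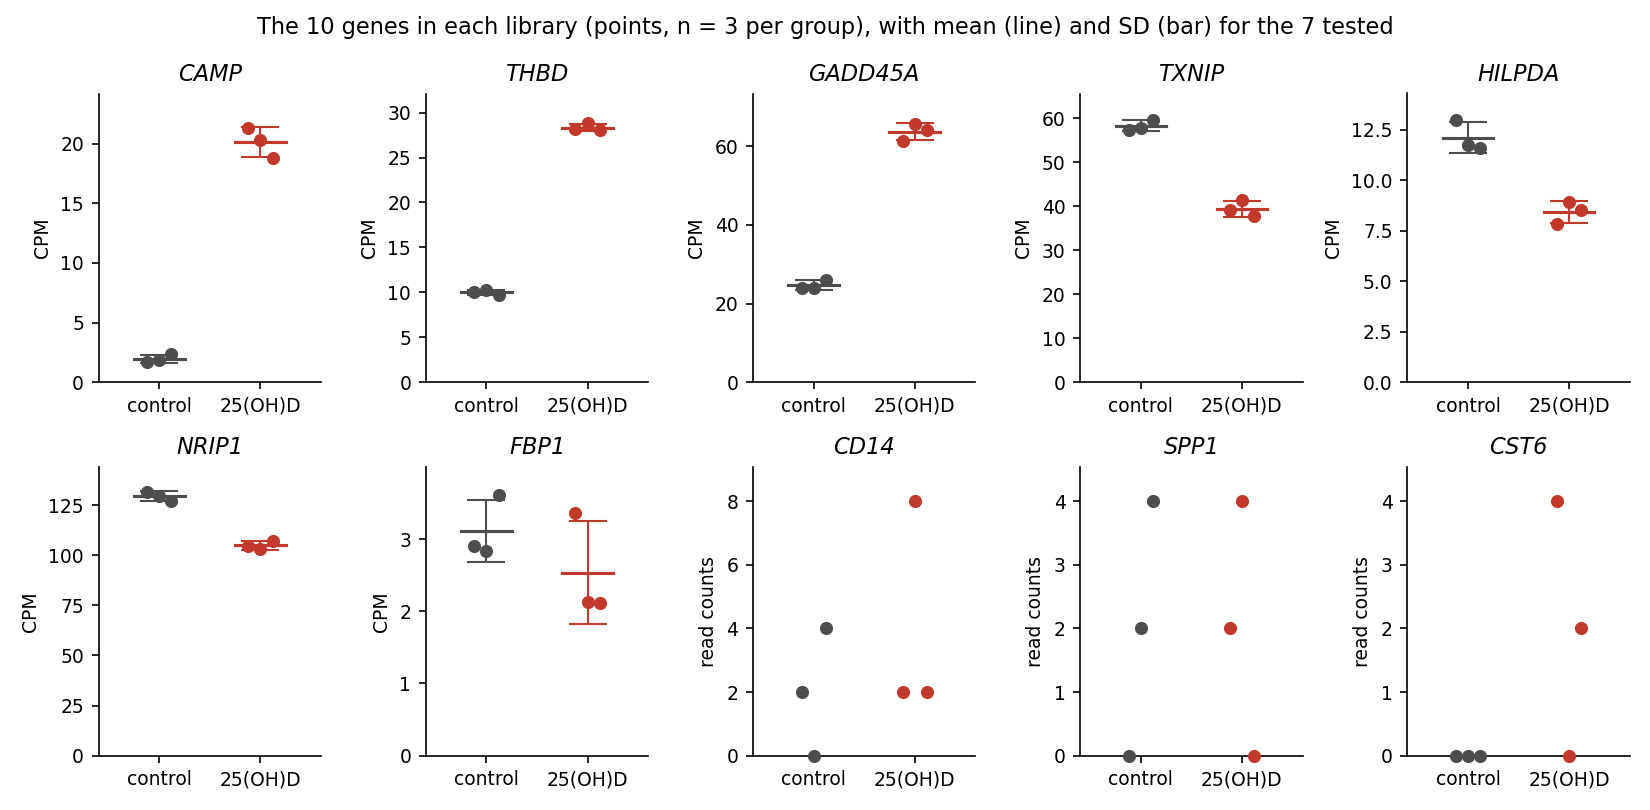
Level of each of the 10 genes in each library, as CPM for the 7 genes tested and as read counts for CD14, SPP1 and CST6. Points are libraries (grey, control, and red, 25(OH)D), lines are means and bars are SD over n = 3. The groups are apart for CAMP, THBD, GADD45A, TXNIP, HILPDA and NRIP1 and overlap for the other 4 genes.

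The nuclear members are GADD45A and NRIP1. GADD45A, on chromosome 1 from 67685061 to 67688338 (plus strand), encodes a stress-induced protein that takes part in growth arrest and DNA repair. It had 23.85, 23.95 and 26.1 CPM in control and 61.4, 65.6 and 64.3 CPM in 25(OH)D. All 25(OH)D libraries were above all control libraries, and the rise was 2.59-fold (95% interval 2.37 to 2.83). The log2 fold change was 1.37 ± 0.06 (SE, adjusted p = 3.05e-10), and 3.87% of the genes tested had a change of this size or larger.

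NRIP1, on chromosome 21 from 14961235 to 15065936 (minus strand), encodes RIP140, a cofactor that binds ligand-activated nuclear receptors and mostly represses their target genes. Its levels were 131.8, 129.8 and 127.1 CPM in control and 104.6, 103 and 107.2 CPM in 25(OH)D. The spread within a group was small (SD 2.33 and 2.09 CPM, n = 3 each), so that the groups did not overlap although the log2 fold change was the smallest of the 6 that passed the test. The gene fell by 0.30 on the log2 scale (SE 0.04, adjusted p = 4.90e-05), to 0.81-fold of control with a 95% interval from 0.761 to 0.861. A change of at least this size was common, at 38.6% of the genes tested. The annotation places 87 bases of NRIP1 exons (1.02%) under another gene of the same strand and 562 bases (6.61%) under one of the opposite strand, and neither of these genes passed the test (adjusted p = 0.691 and 0.204).

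The metabolic members are TXNIP, HILPDA and FBP1, and none of them rose. TXNIP, on chromosome 1 from 145992435 to 145996600 (minus strand), encodes a thioredoxin-binding arrestin that restrains glucose uptake and is itself induced by glucose. It had 57.35, 57.8 and 59.7 CPM in control and 39.1, 41.4 and 37.9 CPM in 25(OH)D. All 25(OH)D libraries were below all control libraries. The gene fell by 0.56 on the log2 scale (SE 0.06, adjusted p = 1.88e-06), with a 95% interval of the fold from 0.624 to 0.735. A change of this size or larger was seen in 18.2% of the genes tested.

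HILPDA, on chromosome 7 from 128455849 to 128458418 (plus strand), encodes a small lipid droplet protein that is induced by hypoxia and inhibits the lipase PNPLA2. It had 12.99, 11.8 and 11.6 CPM in control and 7.82, 8.92 and 8.53 CPM in 25(OH)D, without overlap. The gene fell by 0.52 on the log2 scale (SE 0.10, adjusted p = 7.10e-04), with a 95% interval of the fold from 0.602 to 0.803. Its exons share 175 bases (8.45%) with 1 gene of the same strand and 186 bases (8.99%) with another, and of these the second also fell (by 0.43 on the log2 scale, adjusted p = 0.0239), so that the counts of HILPDA are less certain than those of the other members. A change at least as large as that of HILPDA was seen in 20% of the genes tested.

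FBP1, on chromosome 9 from 94603133 to 94640249 (minus strand), encodes fructose-1,6-bisphosphatase, which catalyses a rate-limiting step of gluconeogenesis. It had 2.91, 2.83 and 3.61 CPM in control and 3.36, 2.13 and 2.12 CPM in 25(OH)D. The first 25(OH)D library lay within the control range and the other two lay below it. The log2 fold change was -0.30 ± 0.21 (SE, adjusted p = 0.312), and its 95% interval from -0.75 to 0.15 holds both no change and a fall like that of TXNIP. FBP1 was the least precise of the 7 genes in 25(OH)D, with a coefficient of variation of 28% between libraries. Leaving out 1 library at a time, the log2 fold change ran from -0.54 to -0.17 and the adjusted p from 0.067 to 0.641. The largest fall, -0.54 with an adjusted p of 0.067, came without the first 25(OH)D library.

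The secreted members are SPP1 and CST6. SPP1, on chromosome 4 from 87975650 to 87983426 (plus strand), encodes osteopontin, a phosphoprotein of bone matrix that binds integrins. It had 0, 2 and 4 counts in control and 2, 4 and 0 counts in 25(OH)D, which is the same set of values. CST6, on chromosome 11 from 66011841 to 66013505 (plus strand), encodes cystatin M/E, an inhibitor of cysteine proteases. It had 0 counts in every control library and 4, 0 and 2 counts in the 25(OH)D libraries, so that the groups overlapped at 0. Neither gene passed the low-count filter, and without it the adjusted p was 0.988 for SPP1 and 0.272 for CST6. A change of either gene was not detectable at this depth. All 11 values of the 3 low genes that were above 0 were even numbers, as were 68.5% of all table values from 1 to 10, so that a fragment appears to have been counted as 2 reads and such values stand for even fewer fragments.

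**Figure D2:**
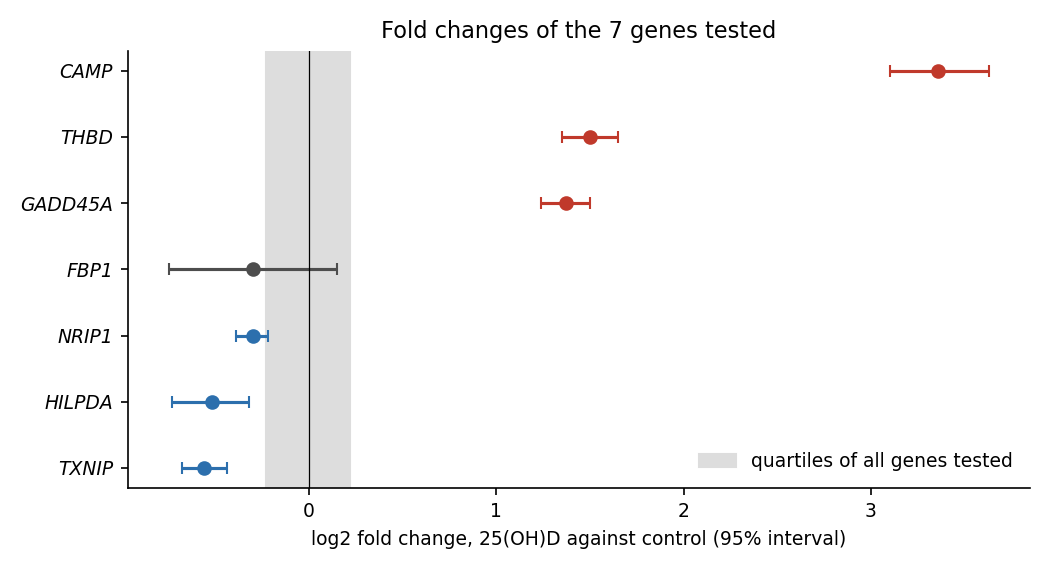
Log2 fold change of 25(OH)D against control for the 7 genes tested, with 95% intervals (red, higher; blue, lower; grey, interval that includes 0). The grey band spans the quartiles of all genes tested (-0.23 to 0.22). CAMP stands at 3.36, THBD and GADD45A at 1.50 and 1.37 with overlapping intervals, and the other 4 genes lie between -0.56 and -0.30.

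The groups were apart, with no library in the range of the other group, for 6 of the 7 genes, as for 45.7% of all genes tested. The median log2 fold change of the 7 was -0.30, against -0.01 over all genes. With a limit of 1 on the absolute log2 fold change, CAMP, THBD and GADD45A still counted as higher, as 3.69% of all genes did, and none of the 7 as lower, as 2.3% of all genes did. The intervals of THBD and GADD45A overlapped, whereas that of CAMP lay above both.

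Levels between genes were compared in RPKM, which scales counts to gene length and library total. In control the order of the means was TXNIP (16.3 ± 0.27 RPKM, SD, n = 3), NRIP1 (15.5 ± 0.34), GADD45A (12.1 ± 0.57), HILPDA (5.94 ± 0.39), CAMP (2.67 ± 0.45), THBD (2.47 ± 0.08) and FBP1 (1.89 ± 0.25). Only CAMP and THBD, of these neighbours, overlapped between libraries. In 25(OH)D the order was GADD45A (30.3 ± 1.17 RPKM), CAMP (26.6 ± 1.72), NRIP1 (12.2 ± 0.18), TXNIP (10.7 ± 0.56), THBD (6.78 ± 0.15), HILPDA (4.01 ± 0.28) and FBP1 (1.50 ± 0.42), and each was above the next in every library. CAMP thus moved from the fifth place to the second, and from above 71.5% to above 94.7% of the genes in the table. CD14, SPP1 and CST6 were last in both groups, at means of 0.0754 RPKM or less, and could not be ordered among themselves.

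**Figure D3:**
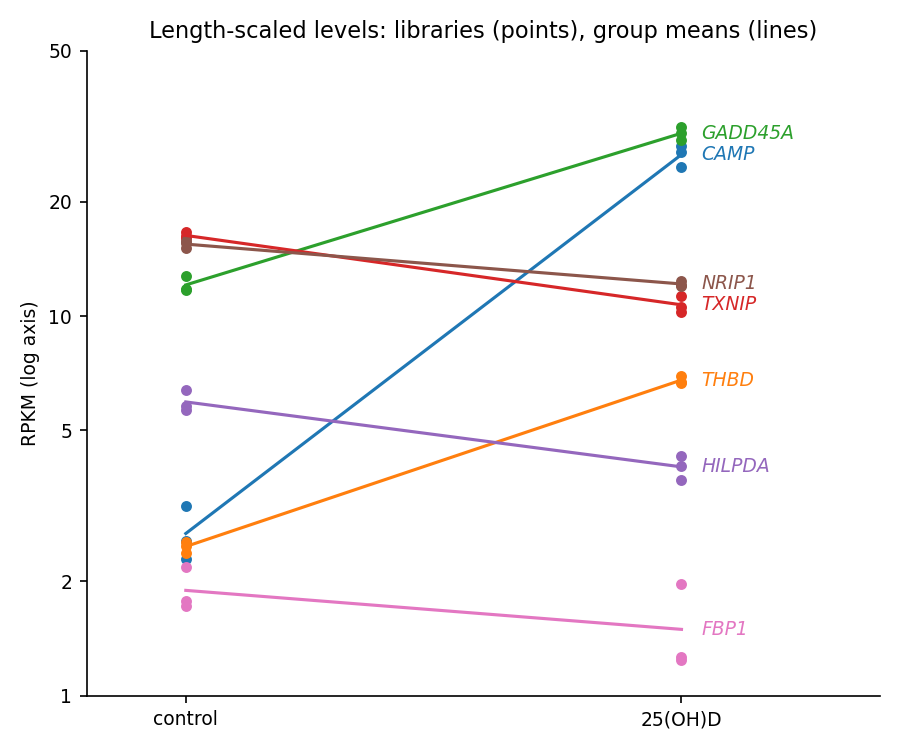
RPKM of the 7 genes tested in each library (points) on a log axis, with lines between the group means. GADD45A and CAMP end highest, at 30.3 and 26.6 RPKM, and the lines of TXNIP, NRIP1, HILPDA and FBP1 slope down.

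The receptor itself was present in every library. VDR, on chromosome 12 from 47841537 to 47943048 (minus strand), had 81.7, 80.4 and 80.4 CPM in control and 138.9, 134.7 and 126.8 CPM in 25(OH)D. The rise was 1.65-fold (log2 fold change 0.72 ± 0.05, SE, adjusted p = 1.94e-08), and no library of the groups overlapped. Of 21 genes for the receptor, its partners and the vitamin D enzymes, 16 were tested, with a median of 0.0063. Of these 5 rose (31.2%, against 17.3% of all genes tested), 2 fell (12.5%, against 16.5%) and 9 did not pass the test. With upper-quartile factors in place of TMM the split was 5 higher and 5 lower, and with library sizes alone 5 and 6, so the number that fell depends on the scaling. DHCR7, which diverts the vitamin D precursor to cholesterol, rose from 34.2 ± 0.99 to 54.8 ± 2.25 CPM (SD, n = 3 each; adjusted p = 3.79e-07). RXRA, the dimer partner of VDR, fell by 0.37 on the log2 scale (adjusted p = 0.00429), and the coactivator gene CREBBP fell by 0.24 (adjusted p = 0.00133). CYP27B1, the activating enzyme, named here after its values were seen, stood at 5.31 and 5.07 CPM (adjusted p = 0.761). CYP24A1, the catabolic enzyme, was not analysed here.

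Other genes known from textbooks as VDR targets were compared from a list of 50. Of these, 31 were tested, of which 16 rose (51.6%), 5 fell (16.1%) and 10 did not pass the test, and the median log2 fold change was 0.45. Over all genes tested 17.3% rose and 16.5% fell, with a median of -0.01. The list was written with earlier results of these data known, so its shares are a description and not a test. Since 4 of the 31 were below the limit of the low-count filter in a control library but in no 25(OH)D library, the counts were also taken without them. This left 14 higher and 5 lower of 27, with a median of 0.25. The calcium channel gene TRPV6 rose 11.1-fold, from 71.6 ± 1.63 to 792 ± 13.3 CPM (SD, n = 3 each; adjusted p = 2.12e-16). CLMN, which encodes calmin, rose 24.5-fold, from 19.3 ± 1.35 to 472 ± 4.32 CPM (adjusted p = 2.12e-16), or 13.6-fold by limma on log2(RPKM + 1), a scale that understates the change of low genes. The transcription factor gene KLF4 fell by 1.15 on the log2 scale (adjusted p = 2.65e-06) and the nuclear receptor gene PPARD by 0.37 (adjusted p = 3.36e-05). CAMP ranked below 3 of the 31 genes by log2 fold change and above 28, THBD and GADD45A each below 7, and TXNIP and HILPDA each below 29. These places count all 31 genes. Among those above THBD and GADD45A, TRPV5 and TREM1 passed the low-count filter only through the 25(OH)D libraries.

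**Figure D4:**
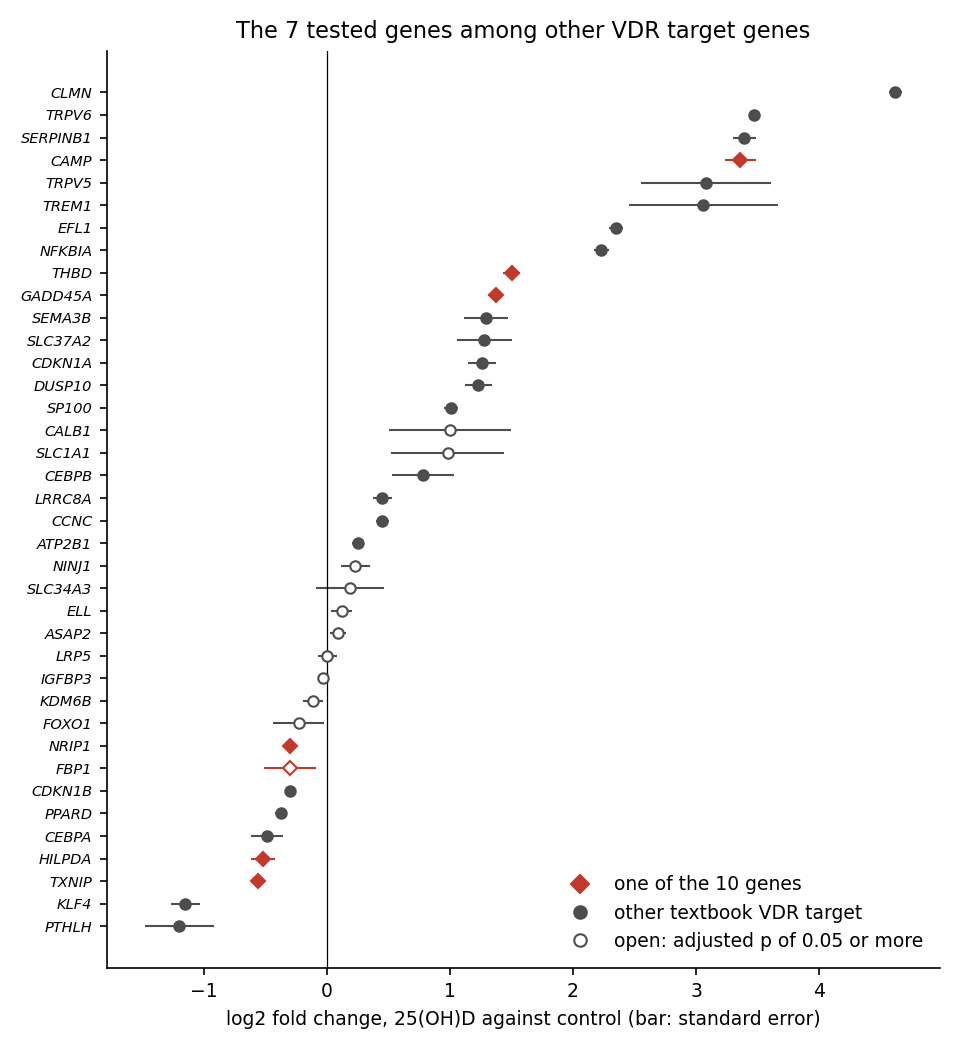
Log2 fold change of 25(OH)D against control, with SE as bars, for the 7 genes tested (red diamonds) and 31 other VDR targets (grey circles), sorted by size, with open symbols for an adjusted p of 0.05 or more. CAMP lies below only CLMN, TRPV6 and SERPINB1, and NRIP1, FBP1, HILPDA and TXNIP lie among the lowest genes. The 31 include 4 genes that were below the limit of the low-count filter in a control library but in no 25(OH)D library.

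Genes that act with each of the 10 were taken from lists of 118 genes in all. Of these, 77 were tested, of which 20 rose (26%), 16 fell (20.8%) and 41 did not pass the test, with a median log2 fold change of 0.03. Over all genes tested 17.3% rose and 16.5% fell, and these shares are also the background for each partner list below. Of 9 partners of CAMP in antimicrobial defence, only SLPI, a secreted protease inhibitor with antimicrobial activity, had enough counts, and it rose from 6.46 ± 0.97 to 12.9 ± 2.48 CPM (SD, n = 3 each; adjusted p = 7.77e-05). Of 3 tested partners of THBD, 2 fell and none rose. PROCR, the protein C receptor that works beside thrombomodulin, had 60, 60 and 56 counts in control and 16, 22 and 20 counts in 25(OH)D, a fall of 63.8% (adjusted p = 0.00101) where THBD rose. On the log2(RPKM + 1) scale it was 0.691-fold of control, against 0.362-fold in the count test. Of the partners of CD14, 3 were tested and none passed the test, and TLR4 and LY96, with which it forms the lipopolysaccharide receptor, did not pass the low-count filter.

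Of 13 tested partners of GADD45A, 2 rose and 4 fell. CDKN1A, which encodes the cell cycle inhibitor p21, rose from 5.74 ± 0.05 to 13.8 ± 1.87 CPM (SD, n = 3 each; adjusted p = 7.70e-07), and CCNB1, which encodes the mitotic cyclin B1 whose kinase GADD45A inhibits, fell by 34.1% (adjusted p = 4.83e-07). The paralogue GADD45G, named after its values were seen, rose by 1.63 on the log2 scale (adjusted p = 3.85e-05), while GADD45B did not pass the test (0.36, adjusted p = 0.0647). Of 11 tested partners of NRIP1, 3 rose and 3 fell. PPARGC1A, a coactivator of oxidative metabolism, fell by 45.2%, from 3.52 ± 0.39 to 1.93 ± 0.43 CPM (SD, n = 3 each; adjusted p = 0.00322), or to 0.884-fold of control on the log2(RPKM + 1) scale.

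Of 10 tested partners of TXNIP, 1 rose and 3 fell. TXNRD1, which encodes thioredoxin reductase, rose from 281 ± 5.06 to 460.1 ± 4.12 CPM (SD, n = 3 each; adjusted p = 1.10e-09), and MLXIP, which encodes the glucose-sensing factor MondoA that induces TXNIP, fell by 31.4% (adjusted p = 1.05e-04). The other arrestin genes of the list are named after their values were seen. ARRDC1 and ARRDC2 fell (log2 fold change -0.16 and -0.38, adjusted p = 0.0091 and 0.00914). ARRDC3 and ARRDC4, the latter another MondoA target, did not pass the test (-0.09 and -0.02, adjusted p = 0.395 and 0.888). The part of MLXIP in the fall of TXNIP was not tested. Of 12 tested partners of HILPDA, 4 rose and none fell, or 3 of the 9 that were above the low-count limit in all 6 libraries. PNPLA2, the triglyceride lipase that HILPDA inhibits, rose 2.21-fold, from 35.1 ± 1.75 to 77.5 ± 2.30 CPM (adjusted p = 1.01e-09), where HILPDA fell. Of 14 tested partners of FBP1, 4 rose and 3 fell. PFKFB1 and PFKFB3, both of which set the level of fructose-2,6-bisphosphate, an inhibitor of FBP1, moved in opposite directions. PFKFB1 rose 5.69-fold, from 1.57 ± 0.26 to 8.91 ± 1.39 CPM (adjusted p = 3.63e-08), or 2.96-fold on the log2(RPKM + 1) scale, and PFKFB3 fell by 51.8% from 84.4 ± 2.40 CPM (adjusted p = 1.62e-08).

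Of 4 tested partners of SPP1, 3 rose and none fell, and ITGAV, the integrin subunit that binds osteopontin, rose from 61.1 ± 2.72 to 78.4 ± 0.54 CPM (SD, n = 3 each; adjusted p = 5.93e-05). Of 6 tested partners of CST6, 2 rose and 1 fell. The cysteine proteases CTSL and CTSV, both of which cystatin M/E inhibits, moved apart. CTSL rose 1.59-fold (adjusted p = 4.34e-05), and CTSV, at 3.34 ± 0.34 CPM in control, fell by 49.3% (adjusted p = 0.00285), or to 0.785-fold of control on the log2(RPKM + 1) scale.

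**Figure D5:**
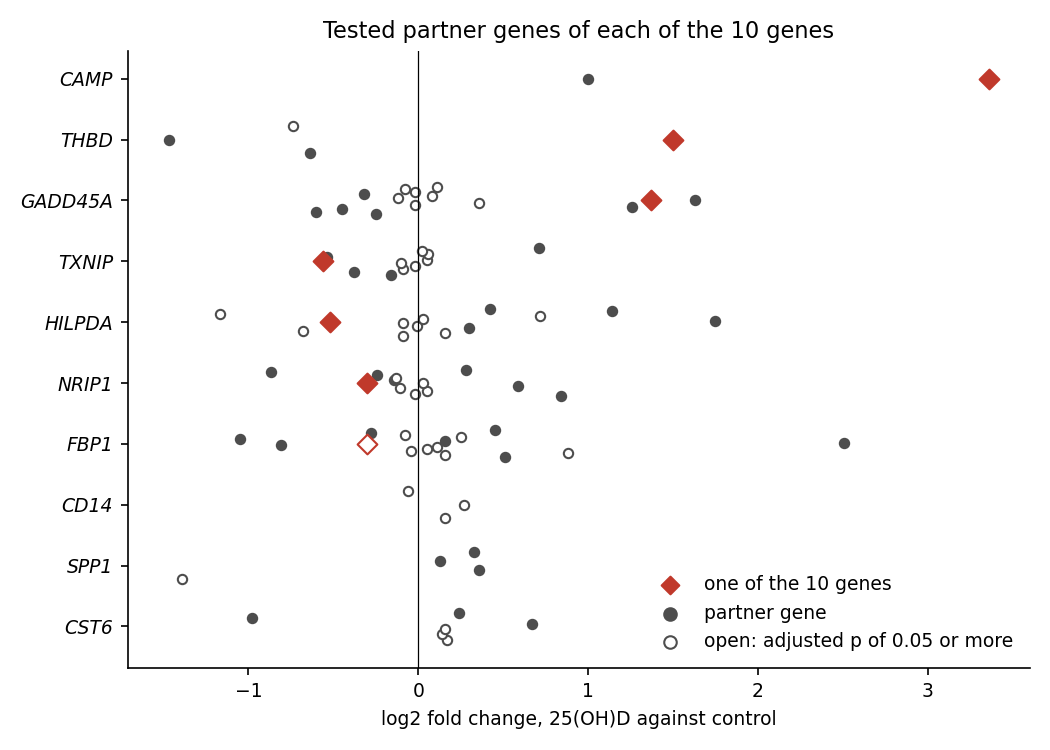
Log2 fold change of 25(OH)D against control for the tested partner genes of each of the 10 genes (circles, 1 row for each gene) and for the gene itself (red diamond, where tested), with open symbols for an adjusted p of 0.05 or more. The tested partners lie on both sides of 0 for every gene except CAMP and THBD, and the diamonds of CAMP and THBD stand to the right of all their tested partners.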

How the data were processed

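mRNA of MDA-MB-453 cells was analysed in 3 control and 3 25(OH)D libraries, each assigned to its group and replicate by its title and treatment label. The authors deposited whole read counts per gene without normalization, and the authors also deposited RPKM values, which equalled the count divided by gene length and library total (largest relative difference 2.23e-13). The submitters' processing notes name Trimmomatic 0.36, Subread 1.5.1, featureCounts, edgeR 3.12.1 and the build GRCh38. The aligner's role, the strand setting and the annotation release are not given in the sources used here. Library totals are stated in the report. At this depth low counts limit the precision, and 3 counts were taken as the floor.

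The count analysis used edgeR 4.0.16 under R 4.3.3, with TMM factors, its default low-count filter (minimum count 10) and the quasi-likelihood test without covariates, with Benjamini-Hochberg adjustment over 18183 genes, and called at an adjusted p under 0.05. The biological coefficient of variation was 0.0788. Replicates differed by more than sampling noise (chi-square per gene 3.85 to 11.2). If each fragment was counted as 2 reads, these values become 1.93 to 5.58. None was therefore counted as a duplicate. Alternatives were DESeq2 1.42.0, limma 3.58.1 on log2(RPKM + 1) and log2(RPKM + 0.1), upper-quartile factors, library sizes alone, no or a stricter filter, the replicate block, the omission of each library and, added after seeing the data, halved counts. Tables and figures used Python 3.11.15, pandas 2.3.3, numpy 2.4.6 and matplotlib 3.10.9.

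The members and lists were chosen with earlier results of these data known. The genes named are the members, VDR, in the lists of the receptor and of other targets the 2 genes with the smallest p in each direction among those that passed the test, and in each partner list the 1 such gene in each direction. Marker lists are given by counts and ranges with the most abundant gene. Other genes are named outside this rule, among them VCAN and further markers, SERPINB1, TRPV5, TREM1, TLR4 and LY96. Only for some of these other genes does the text say that they were named after their values were seen. 1 gene that this rule names is not reported here.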

Additional observations from a re-analysis of the deposited data

How the results depend on the processing

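All 15 alternatives gave 3 of the 10 genes higher and 3 lower. Leaving out 1 library at a time, the log2 fold change was 3.26 to 3.51 for CAMP, 1.49 to 1.53 for THBD, 1.35 to 1.42 for GADD45A, -0.59 to -0.52 for TXNIP, -0.56 to -0.46 for HILPDA and -0.31 to -0.28 for NRIP1, and the adjusted p of FBP1 ran from 0.067 to 0.641. In the list of the receptor, its partners and enzymes, 2 genes fell under TMM, 5 with upper-quartile factors, 6 with library sizes alone and 4 with limma on log2(RPKM + 0.1). These factors shift the median log2 fold change of all genes from -0.01 to -0.05, -0.06 and -0.05. Counts of calls over all genes ranged from 5091 to 6356, against 6142. Of these calls 51.1% were higher under TMM, 42.8% with upper-quartile factors, 42.3% with library sizes alone and 43% with limma on log2(RPKM + 1), so that the near balance of rises and falls depends on the scaling. With the replicate number as a block 5953 genes were called, and no call on the 10 genes changed. Libraries of the same number did not deviate together (correlations -0.0721, -0.012 and -0.046), and no sample correlated best with its own number. With 3 libraries in each group these correlations cannot decide whether libraries of the same number were handled together, and the labels do not say. Depth limits CD14, SPP1 and CST6.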
